A study of Homo sapiens with 2 samples.

Results

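The genes described here handle the export of sterols from the cell and its control by liver X receptors. They were chosen by name: the rows of the deposited table whose gene name was 1 of 8 symbols. ABCA1 and ABCG1 are the transporters, NR1H2 and NR1H3 the receptors, MYLIP and SMPDL3A targets of those receptors, and NPC1 and NPC2 the proteins of endosomal sterol transfer. All 8 were found among the 15603 genes of the table. The names were picked with results of these data in view, among them the levels of ABCA1 and ABCG1, so the values of the 8 genes are a description and no test is attached to them.

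RNA was sequenced from A172, an established human glioblastoma cell line, in 2 libraries. The parental library came from A172 cells labelled as kept without temozolomide (TMZ), an alkylating drug used against this tumour. The resistant library came from A172-r#6, a clone of the line selected with TMZ and labelled as kept with it. Both were made from total RNA with a stranded mRNA kit, and each group held 1 library. The resistant group is a single clone, so clone, selection and drug exposure cannot be told apart, and no value below has a replicate check.

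Cells cannot break down the sterol ring, so surplus cholesterol is esterified, or exported to lipoproteins. Oxysterols and late intermediates of cholesterol synthesis bind the liver X receptors, which sit on DNA with a retinoid X receptor and switch on ABCA1, ABCG1, MYLIP, SMPDL3A and genes of fatty acid synthesis. The opposite arm is run by SREBP factors, which are held back when membranes are rich in sterol and otherwise switch on cholesterol synthesis and uptake. Cholesterol taken up by endocytosis reaches the rest of the cell through NPC2 and NPC1. Glioblastoma cells are known to take up cholesterol rather than make most of it, and to be sensitive to agonists of the liver X receptors.

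The promoter of ABCA1 is shown first because it is the gene with the highest fold of the 8 and its promoter holds a known liver X receptor element. The window runs from 250 bases before the RefSeq start to 50 after it (chr9:104928106-104928405, GRCh38.p14, minus strand), printed 5′ to 3′ along the gene. Capitals mark 2 stretches that a search found, the E-box CACGTG and the DR4 element, which is a pair of AGGTCA motifs in the same direction with 4 bases between them.

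ABCA1 promoter: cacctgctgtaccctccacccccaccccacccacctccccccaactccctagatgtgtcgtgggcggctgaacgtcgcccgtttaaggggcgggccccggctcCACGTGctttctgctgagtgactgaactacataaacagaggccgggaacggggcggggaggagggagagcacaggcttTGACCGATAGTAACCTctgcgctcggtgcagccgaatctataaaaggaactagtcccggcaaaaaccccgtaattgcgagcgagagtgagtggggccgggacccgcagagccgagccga

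The DR4 element lay on the opposite strand, from -69 to -54 relative to the start, and reads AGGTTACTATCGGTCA on that strand. With positions counted from 1 at the 5′ end of the element, it differed from the repeated AGGTCA by C5T and A11C. The search covered both strands and allowed 1 mismatch in each AGGTCA. At that setting 484 of 35116 RefSeq promoter windows (1.38%) held a match. Counted by gene, as the members are, 1.71% of 27305 genes had a match in at least 1 window. Among the 6 members with a window ABCA1 was the only one with a match. With no mismatch allowed no member matched, and 0.0199% of windows and 0.0256% of genes did. The E-box lay from -147 to -142, and 7.26% of all windows and 8.77% of genes held one. A single AGGTCA was found in NR1H3 alone among the members, from -140 to -135 in 1 of its 4 windows. It was found in 13.8% of all windows and 16.5% of genes. The GC box GGGCGG, found in 45.0% of windows and 48.3% of genes, was present in a window of each of the 6 members. Neither the CLEAR-type motif TCACGTGA nor the core of the sterol response element, with 1 mismatch allowed, was found in a member's window. Their shares were 0.980% and 1.70% of all windows, and 1.18% and 2.08% of genes. ABCG1 and SMPDL3A had no entry in the RefSeq table. A match is a run of letters in a window of this length and was not tested for binding.

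A second sequence looked for in the members is the match to the seed of miR-33. This microRNA has 2 forms, read from introns of the SREBP genes SREBF2 and SREBF1, and is known to repress ABCA1 and NPC1. The mature forms are printed with the seed, bases 2 to 8, in capitals (RefSeq, GRCh38.p14).

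miR-33a-5p: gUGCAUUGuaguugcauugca
miR-33b-5p: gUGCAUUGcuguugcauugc

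Both carry the seed UGCAUUG, whose match in a messenger RNA is CAATGCA. ABCA1 held 4 such matches in its 3′ UTR of 3313 bases and NPC1 held 1 in 765 bases (the longest 3′ UTR of the gene in GENCODE 29). The other 6 members held none, in UTRs of 312 to 1497 bases. Of listed genes with a 3′ UTR 0.8 to 1.2 times as long as that of ABCA1, 16.3% held at least 1 match, and the share was 2.93% at the length of NPC1. The sites are printed with the match in capitals, and the first base after the stop codon is position 1.

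ABCA1 135 to 141: gtactgatactattCAATGCAa
ABCA1 140 to 146: gatactattcaatgCAATGCAa
ABCA1 150 to 156: aatgcaatgcaattCAATGCAa
ABCA1 1475 to 1481: ttttttaattgcaaCAATGCAa
NPC1 322 to 328: ctgtaaaggccaatCAATGCAc

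The first 3 ABCA1 sites span 22 bases, and the first of them overlaps the second. MicroRNAs were not measured in these libraries. The gene that hosts miR-33a, SREBF2, had 28.9 FPKM in parental cells and 22.6 in the resistant clone, and SREBF1, which hosts miR-33b, had 101 and 88.7.

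Levels are given as FPKM (fragments per kilobase of transcript and per unit of depth), a unit per length that can be compared between genes. For folds, 1 was added to both FPKM values before log2 of resistant over parental was taken, which makes changes of low genes look smaller. A gene was called higher or lower when the fold was at least 2, that is 1 on the log2 scale, among the 13937 genes that reached 1 FPKM in at least 1 library. All 8 members were among those tested.

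The transporters were the 2 members called, both higher in the resistant library, and no member was called lower. Over all tested genes 640 (4.59%) were called higher and 532 (3.82%) lower, 8.41% in either direction. With the libraries scaled to the same FPKM sum these counts were 492 and 646, and the same 2 members were called. In bulk RNA a change in the share of expressing cells and a change in RNA per cell cannot be told apart. The count of members called is set by how they were chosen, and nothing is read from it. The median log2 fold was 0.29 over the 8 members and 0.04 over all tested genes, and 4 members had a positive and 4 a negative fold.

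**Figure D1:**
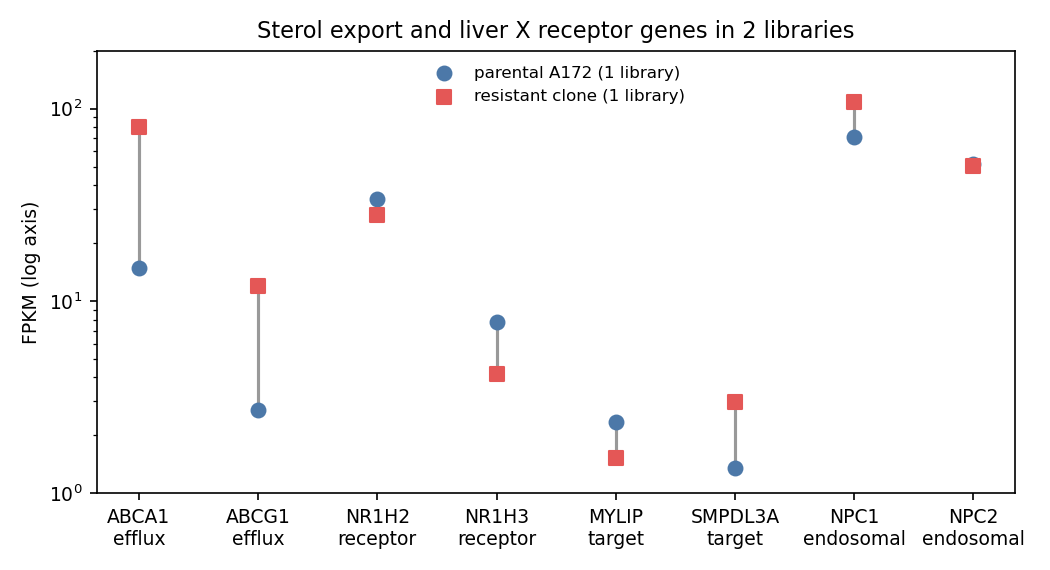
FPKM on a log axis for the 8 members, with circles for the parental and squares for the resistant library, 1 library each and so no error bars. ABCA1 goes from 14.8 to 80.5 FPKM and ABCG1 from 2.71 to 12.0, while the points of NPC2 coincide at 51.4 and 50.6.

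ABCA1 loads cholesterol and phospholipid onto lipid-poor apolipoproteins and is the first step of reverse cholesterol transport. ABCA1 (ENSG00000165029) lies on chromosome 9 from 104781002 to 104928237 (GRCh38, minus strand, GENCODE 29) and shares no exon with another annotated gene. It had 14.8 FPKM in parental cells and 80.5 in the resistant clone, a plain ratio of 5.44 and a log2 fold of 2.37. It ranked 28 from the top in fold among the 13937 tested genes. Its level was above that of 67.0% of tested genes in the parental library and of 95.5% in the resistant one. Of the 8 genes, NPC1, NPC2 and NR1H2 had higher levels than ABCA1 in the parental library, and NPC1 alone did in the resistant one.

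ABCG1 is a half-transporter that works as a dimer and passes cholesterol on to mature HDL particles and between membranes inside the cell. ABCG1 (ENSG00000160179, chromosome 21, 42199689 to 42297244, plus strand) shares no exon with another annotated gene either. It had 2.71 FPKM in parental cells and 12.0 in the resistant clone, a plain ratio of 4.44 and a log2 fold of 1.81, and it ranked 92 in fold. Its level remained well under that of ABCA1: the ratio of ABCA1 to ABCG1 was 5.45 in parental cells and 6.68 in the resistant clone. The transporters summed to 17.5 FPKM in parental cells and 92.5 in the resistant clone.

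The receptors themselves were not higher. NR1H2 encodes LXR-beta, which most tissues express, and NR1H3 encodes LXR-alpha, which is richest in liver, fat and macrophages and whose own gene is a target of the receptor in human cells. NR1H2 (ENSG00000131408, chromosome 19, 50329653 to 50382982, plus strand) had 33.7 FPKM in parental cells and 27.9 in the resistant clone (log2 fold -0.26). NR1H3 (ENSG00000025434, chromosome 11, 47248300 to 47269032, plus strand) had 7.73 and 4.19 FPKM (log2 fold -0.75), the lowest fold of the 8 and still under the 2-fold threshold. NR1H2 was the more abundant receptor in both libraries, at 4.35 times NR1H3 in the parental and 6.66 times in the resistant one. NR1H3 made up 18.7% of the summed receptor FPKM in parental cells and 13.1% in the resistant clone. NR1H3 shares 189 exonic bases (4.17% of its own) with ACP2 on the opposite strand, which had 13.7 and 16.8 FPKM. Whether strand was used in counting is not given in the sources used here, so reads from those bases cannot be told apart.

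The other 2 direct targets were not called, and their folds had opposite signs. MYLIP, also called IDOL, is the ubiquitin ligase that sends lipoprotein receptors to the lysosome. MYLIP (ENSG00000007944, chromosome 6, 16129125 to 16148248, plus strand) had 2.34 FPKM in parental cells and 1.53 in the resistant clone (log2 fold -0.40). SMPDL3A is a secreted phosphodiesterase of the acid sphingomyelinase family and an LXR target in human macrophages. SMPDL3A (ENSG00000172594, chromosome 6, 122789049 to 122809720, plus strand) had 1.35 and 2.98 FPKM. Its plain ratio was 2.20, but the log2 fold with the added 1 was 0.76 and it was not called. With 0.1 added in place of 1 it was called higher. Both genes were among the lower levels, above 20.0% and 9.54% of tested genes in the parental library, and with a filter of 5 FPKM neither would have been tested.

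NPC1 and NPC2 hand cholesterol from the lumen of the late endosome to its membrane, NPC2 as a soluble carrier and NPC1 as the membrane protein that receives it. They were the 2 most abundant members in the parental library. NPC1 (ENSG00000141458, chromosome 18, 23506184 to 23586898, minus strand) had 71.3 FPKM in parental cells and 108 in the resistant clone, a plain ratio of 1.52 (log2 fold 0.60). NPC2 (ENSG00000119655, chromosome 14, 74476192 to 74494177, minus strand) had 51.4 and 50.6 FPKM (log2 fold -0.02). The ratio of NPC1 to NPC2 was 1.39 in parental cells and 2.14 in the resistant clone. NPC1 shares 604 exonic bases (5.98% of its own) with C18orf8 on the opposite strand, at 21.0 and 19.9 FPKM. NPC2 shares 103 (3.75%) with ISCA2, at 2.73 and 3.33 FPKM.

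**Figure D2:**
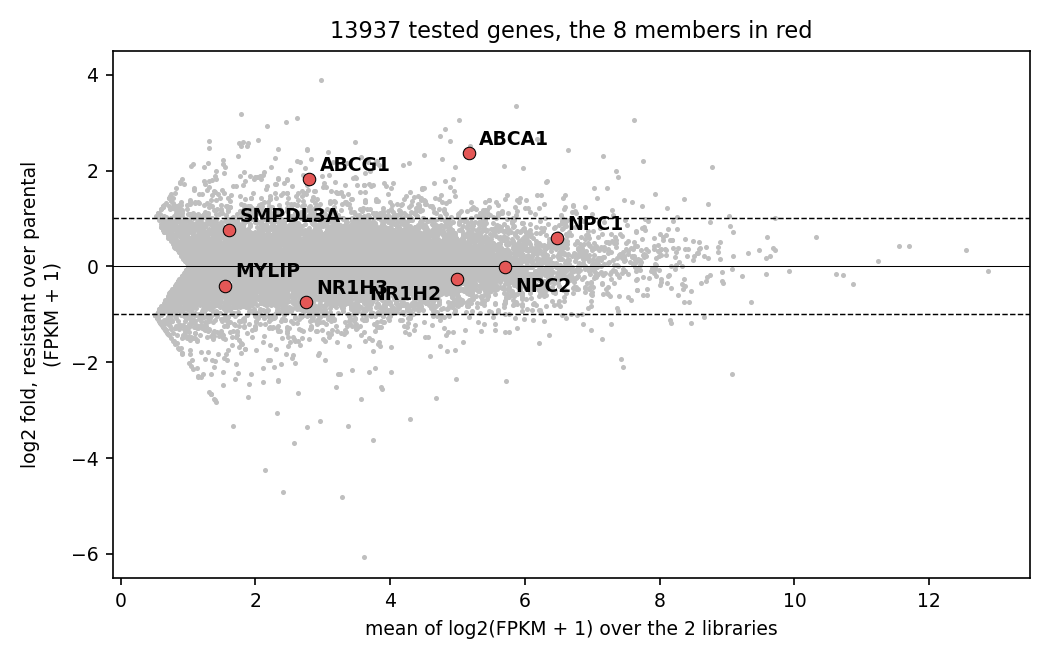
Each grey point is 1 of 13937 tested genes, with the mean of log2(FPKM + 1) over the 2 libraries across and the log2 fold of resistant over parental upward. Dashed lines mark 2-fold, and the 8 members are in red. ABCA1 at 2.37 and ABCG1 at 1.81 stand above the upper line and the other 6 members lie between the lines.

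In the authors' deposited table, ABCA1 had a q-value of 6.19e-09 and ABCG1 one of 4.24e-12. The authors' deposited table gave 0.0594 for NPC1, 0.111 for NR1H3 and 0.314 for SMPDL3A. For MYLIP, NR1H2 and NPC2 the q-values in the authors' deposited table were 0.585, 0.649 and 0.980. At a threshold of 0.05, chosen here, the authors' deposited table held 801 genes (5.13%) higher and 621 (3.98%) lower. Their test is not stated and compares 2 libraries, not the conditions. ABCA1 and ABCG1 were picked with their levels in view, so their small q-values follow from that choice. The q-values are printed as deposited, and nothing is read from them.

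The genes whose pair of levels lay nearest to a transporter were found by distance in log2(FPKM + 1) over the 2 libraries. For ABCA1 they were GADD45A (14.2 and 85.9 FPKM, distance 0.107), SLFN5 (14.2 and 62.4, distance 0.366) and UPP1 (11.0 and 72.2, distance 0.426). For ABCG1 they were PDE5A (2.77 and 11.3 FPKM, distance 0.0907), NXN (2.37 and 11.7, distance 0.146) and ROR1 (2.94 and 10.9, distance 0.156). Likeness over 2 points says only that the levels were close.

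The neighbours of each member on its chromosome were read next, as the 5 tested genes on either side in GENCODE order, a description added after the members' values were seen. Of the 10 around ABCA1, none was called higher, and their median log2 fold was 0.23. The adjoining genes were NIPSNAP3A (28.0 FPKM parental, 32.6 resistant) and SLC44A1 (18.7 and 16.8). One neighbour, the antisense RNA SMC2-AS1, was called lower, from 1.02 FPKM in the parental to a listed 0 in the resistant library. Of the 10 around ABCG1, none was called in either direction (median 0.14), with ZBTB21 at 10.4 and 13.3 FPKM and SLC37A1 at 1.24 and 1.21 beside it. The highest folds among these neighbours were 0.88 around ABCA1 and 0.81 around ABCG1, below those of the 2 transporters. The transporters were picked with their levels known, so that outcome was largely fixed beforehand and nothing is read from it. NR1H3 had a lower fold than all 10 of its neighbours, whose folds ran from -0.26 to 0.67. Around SMPDL3A 2 of 10 were higher, RNF217 (4.24 and 9.88 FPKM) and HINT3 (8.78 and 20.1), and around MYLIP 1 was, RANBP9 (10.1 and 23.3). Around NR1H2 1 of 10 was higher, ATF5 (10.5 and 27.2 FPKM), and 1 lower, MYBPC2 (4.88 and 0.508). Around NPC2 none was higher and 1 was lower, CTD-2207P18.2, from 1.35 FPKM to a listed 0, and around NR1H3 and NPC1 none was called. The median of the 10 was -0.39 around NR1H2, -0.37 around NPC2 and 0.01 around NPC1. It was 0.20 around SMPDL3A, 0.10 around MYLIP and 0.00 around NR1H3. SMPDL3A, at 0.76, lay within the range of its neighbours, -0.82 to 1.11. MYLIP, NR1H2, NPC1 and NPC2 also lay within the ranges of theirs.

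**Figure D3:**
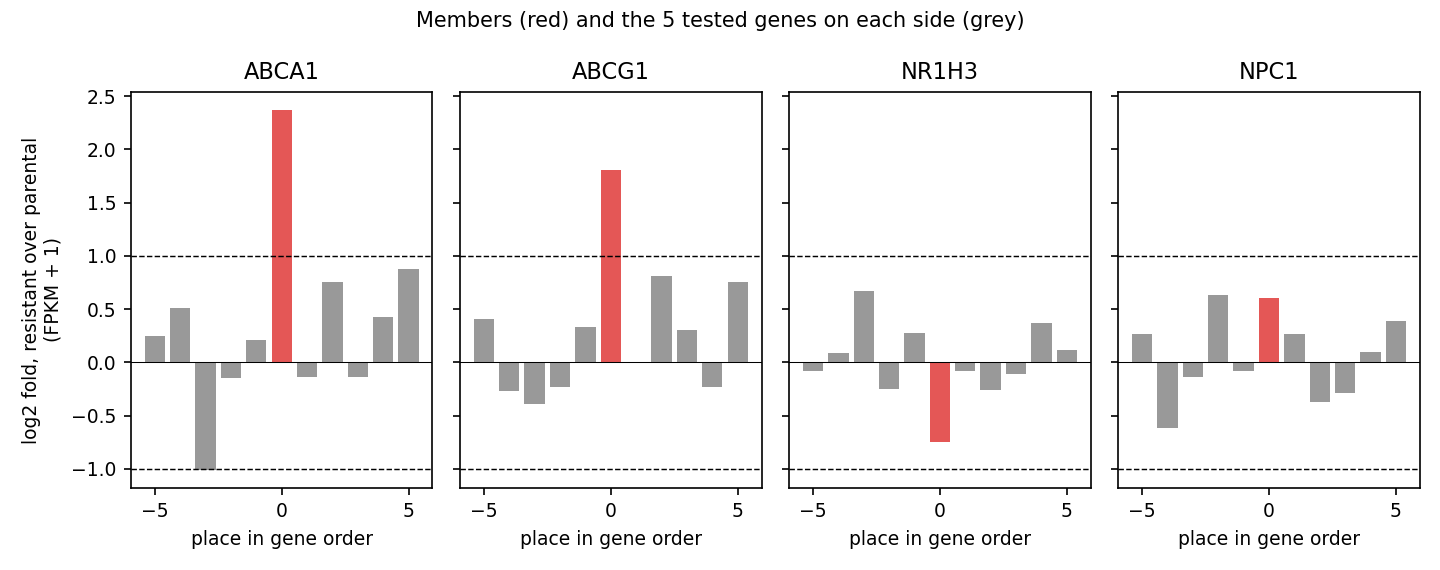
Log2 fold of resistant over parental for ABCA1, ABCG1, NR1H3 and NPC1 (red) and the 5 tested genes on each side in chromosome order (grey), with dashed lines at 2-fold. The bars of ABCA1 and ABCG1, which were picked with their levels known, rise to 2.37 and 1.81, and no grey bar passes the upper line. The grey bar at -1.01 near ABCA1 is SMC2-AS1, which is listed at 0 in the resistant library, so its length depends on the added 1.

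The rest of the pathway was read from 11 lists of genes, described by counts and medians beside the share called over all genes. Together they held 132 tested genes other than the members, of which 8 (6.06%) were called higher and 6 (4.55%) lower. Over all tested genes the shares were 4.59% and 3.82%. With the libraries scaled to the same FPKM sum the lists held 4 higher and 11 lower, and OSBP2, OSBPL6, DGAT2 and ABHD5 were no longer called.

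Among other targets of the liver X receptors and genes of fatty acid synthesis, no gene was called higher with the pseudocount of 1. Of 22 genes named for this list 13 were in the table and 12 tested. One was called lower, and 11 had a negative fold (median -0.16). The lipogenic factor SREBF1, a classic target, had 101 FPKM in parental cells and 88.7 in the resistant clone. The desaturase SCD had 808 and 718 FPKM and fatty acid synthase, FASN, 240 and 169. FADS2, a desaturase of polyunsaturated fatty acids, was the gene called lower, at 419 and 191 FPKM. The only positive fold among the 12 was that of TTC39B, a protein reported to promote turnover of the receptors, at 2.49 and 5.65 FPKM (log2 fold 0.93), named here after its value was seen. Without the added 1 its FPKM ratio was 2.27, past 2-fold, so its missing call rests on the pseudocount.

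Among retinoid X receptors and cofactors, 1 of 13 was called higher and none lower (median 0.06, and from -0.04 to 0.07 across settings). TBL1X, a subunit of the NCoR corepressor complex, had 1.17 FPKM in parental cells and 6.92 in the resistant clone, while its paralog TBL1XR1 had 53.5 and 51.7. The corepressor NCOR1 had 64.4 and 52.6 FPKM and the demethylase KDM1A 154 and 103. The heterodimer partners RXRA (5.02 and 7.53 FPKM) and RXRB (9.11 and 9.54), named for their role and outside the naming rule, were not called. NR1H2 exceeded RXRA 6.71-fold in parental cells and 3.70-fold in the resistant clone. It exceeded RXRB, the more abundant partner in both libraries, 3.70-fold and 2.92-fold. Of 8 other nuclear receptors and coactivators of lipid metabolism, 1 was higher and none lower (median 0.38). This was PPARG, a receptor of adipocytes and macrophages that is known to raise ABCA1 and ABCG1, at 3.52 and 13.2 FPKM (log2 fold 1.65). A link between PPARG and the transporters in these cells was not tested. NR1D2 had 20.1 and 38.9 FPKM and PPARD 12.4 in both libraries.

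None of 5 tested enzymes that make or clear sterol ligands was called, and 4 had a negative fold (median -0.34). EBP, a sterol isomerase of cholesterol synthesis, had 122 FPKM in the parental library and 68.3 in the resistant one, and DHCR7 had 87.7 and 69.2.

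The list of SREBP regulators, sterol-regulated synthesis and lipoprotein receptors had 1 of 20 tested genes higher and 4 lower (median -0.58), with 14 negative folds. The lower ones included FDFT1, HMGCS1 and MVD. MVD, a mevalonate pathway enzyme outside the naming rule, had 25.7 FPKM in the parental library and 11.2 in the resistant one. INSIG1, which holds SREBP in the ER, had 90.3 and 52.7 FPKM. The large scavenging receptor LRP1 had 101 and 53.5. VLDLR, a lipoprotein receptor that MYLIP degrades, was the gene called higher, at 3.51 and 9.13 FPKM. In the list of MYLIP substrates and ubiquitin partners VLDLR was again the only gene called of 8 (median 0.17), with the conjugating enzymes UBE2D3 at 77.1 and 107 FPKM and UBE2D2 at 55.8 and 54.6. VLDLR stands in both lists.

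Beside NPC1 and NPC2, the other genes of endosomal and lysosomal sterol transfer had 2 of 26 higher and none lower (median 0.05, and from -0.06 to 0.06 across settings). Both were oxysterol-binding protein relatives, OSBP2 (1.28 FPKM parental, 3.83 resistant) and OSBPL6 (2.37 and 5.94). Acid lipase, LIPA, which frees cholesterol from LDL esters, had 85.5 and 89.4 FPKM, and LAMP1 had 85.5 and 87.8. Of 16 acid lipid hydrolases and lysosomal regulators, the protease cathepsin D, CTSD, was higher at 267 and 657 FPKM and none lower (median 0.14). Acid sphingomyelinase, SMPD1, the relative of SMPDL3A, had 95.7 and 81.2 FPKM, and the saposin precursor PSAP 339 and 440.

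Of 9 tested genes of cholesterol esterification and lipid droplets, 2 were higher and none lower (median 0.43). These were the triglyceride synthase DGAT2 (1.03 FPKM parental, 3.26 resistant) and ABHD5, an activator of lipolysis (7.12 and 15.6). SOAT1, which esterifies cholesterol, had 24.7 and 37.5 FPKM, and CAV1 49.8 and 81.4. The other tested ABC transporters of subfamilies A and D, 6 in number, all had negative folds and none was called (median -0.61). ABCA2 had 27.5 and 16.6 FPKM in the parental and resistant libraries. Of the 14 tested genes listed as partners of ABCA1 or ABCG1, none was higher and 1 lower, ATP8B1 at 18.4 and 6.17 FPKM (median 0.19). Clusterin, CLU, an apolipoprotein, had 101 and 53.3.

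**Figure D4:**
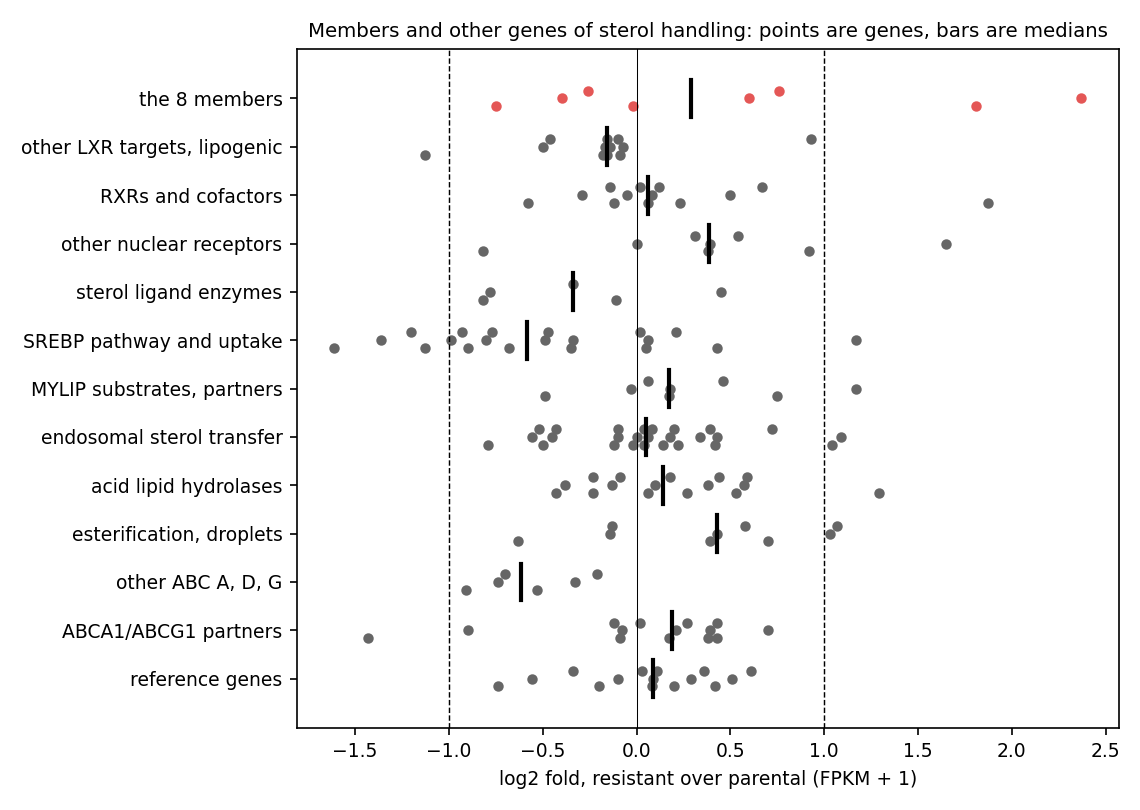
Log2 fold of resistant over parental (FPKM + 1) for the 8 members (red), 11 lists of sterol handling genes and 15 reference genes (grey), where points are genes, thick bars are medians and dashed lines mark 2-fold. ABCA1 and ABCG1 lie at 2.37 and 1.81. The joint list of other liver X receptor targets and lipogenic genes centres on -0.16 and the SREBP list on -0.58.

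Sums of FPKM were 299594 (parental) and 323932 (resistant), and depth is unknown because no counts were used. None of 15 reference genes was called (median log2 fold 0.09), with ACTB at 2333 and 2515 FPKM, EEF1A1 at 1038 and 1581 and B2M at 848 and 507. Since ABCA1, ABCG1 and NR1H3 are abundant in macrophages, 15 myeloid markers were read as well. Of these 3 were listed and 2 tested, with sums over the listed ones of 3.0 FPKM in parental cells and 2.98 in the resistant clone. The similar sums cover opposite folds. MSR1, a scavenger receptor, was called higher, at 0.475 and 2.06 FPKM (log2 fold 1.05). PTPRC had 1.83 and 0.485 FPKM (log2 fold -0.93) and was not called. Its FPKM ratio without the added 1 was 0.264, past 2-fold, so its missing call rests on the pseudocount. CD68, listed but not tested, had 0.690 and 0.434 FPKM. Both libraries came from cultures of the A172 line, not from tissue, and a part of other cells in the members' values was not tested. The defining markers CD14, CSF1R and ITGAM were not among the listed genes. Of the endothelial and pericyte markers, 5 rows were tested, with TEK and 1 of 2 rows named RGS5 lower and none higher, and the listed ones summed to 112 and 54.1 FPKM. Of 14 astrocyte and glioma markers 8 were listed and tested, with 2 lower, none higher and 5 negative folds (median -0.60). The lower ones were nestin, NES, at 33.7 and 5.08 FPKM, and SOX2 at 2.23 and 0.253. The 8 summed to 901 and 1055 FPKM, most of it from vimentin, VIM, at 632 and 804, while CD44 had 83.1 and 161 and was not called. Outside the naming rule, GLUL had a log2 fold of -0.90 and OLIG2 one of 0.86, at 1.43 FPKM in parental cells and 3.42 in the resistant clone. The plain ratio of OLIG2 was 2.39, so its missing call rests on the pseudocount. The astrocyte markers GFAP and AQP4 were not among the listed genes. The table as used lists genes from 0.544 FPKM in the higher library upward.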

How the data were processed

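Per the labels' protocols, total RNA of 1 parental and 1 resistant A172 culture was made into stranded mRNA libraries. Aligner, counting tool, annotation and build, not given in the sources used here, remain unknown. A table was deposited by the authors with FPKM for each library, per the file headers, with no word on their scaling. Other columns hold the authors' log2 ratio and their p-values and q-values, per the file headers, from a test that is not stated. For the 15310 genes above 0 in both libraries that ratio equalled log2 of the FPKM ratio within 0.001. An exact 0 stood for 111 parental and 182 resistant values, which can be failed estimates.

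Folds used a pseudocount of 1, a filter of 1 FPKM in either library and a threshold of 2-fold, in Python 3.11.15 with pandas 2.3.3 and numpy 2.4.6, and the calling rule was tested on simulated data. With 1 library per group there is no replicate spread, so no p-value was computed. Table starts, counted from 0, equalled those of GENCODE 29 (GRCh38) for 63.3% of 15531 matched identifiers, and 96.8% of table loci contained the gene, so GENCODE coordinates are given. Promoters and miRNAs are RefSeq's (GRCh38.p14). Named genes were all members, from each list up to 4 called genes by size of fold and the 3 uncalled ones of highest level, and the 3 genes nearest to each called member. The members and lists were chosen with earlier results of these data known. Alternatives tried were other pseudocounts, filters, thresholds and scalings, the authors' ratio and other mismatch limits for the DR4 element. The values of some genes on the lists are not reported here.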

Additional observations from a re-analysis of the deposited data

How the results depend on the processing

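ABCA1 and ABCG1 stayed positive under all 10 settings of pseudocount, filter and scaling, the authors' ratio included, from 2.11 to 2.44 and from 1.14 to 2.15 on the log2 scale. No member changed sign under these settings, and 2 of them also called SMPDL3A higher: a pseudocount of 0.1 and the authors' ratio. At a threshold of 1.5-fold, 4 members were higher and 1, NR1H3, lower; at 4-fold 1 was higher, ABCA1. Over all genes, 2020 were higher and 1674 lower at 1.5-fold, and 61 and 59 at 4-fold. A pseudocount of 0.1 gave 1076 and 1029, one of 5 gave 220 and 114, and a filter of 5 FPKM gave 282 lower. In the pathway lists, 15 were higher and 21 lower at 1.5-fold, 0 and 0 at 4-fold, and 4 and 11 with the libraries scaled to the same FPKM sum; a pseudocount of 5 gave 2 higher, PPARG and CTSD. That scaling moved the median of tested genes by -0.10. The medians of the RXR and cofactor list, of endosomal sterol transfer and of the reference genes lay near 0 and changed sign under at least 1 setting. With no mismatch allowed, 0 members held a DR4 element. No paired analysis was possible because each group held 1 library, and no library could be left out. Depth is unknown, so the counting error of the low values of MYLIP and SMPDL3A cannot be given.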
